A study of Mus musculus with 31 samples.

Results

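Galectins and annexins were described in single lung cells through 9 genes, chosen by name: the galectin genes Lgals1, Lgals3 and Lgals9, the gene Lgals3bp of a secreted glycoprotein that binds galectin-3, and the annexin genes Anxa1, Anxa2, Anxa3, Anxa4 and Anxa5. All 9 had a row in both tables, among 47069 genes. The study asked which macrophage populations the lung holds after surgery. It measured 31 cells from right lung lobes of B6 mice aged 10 weeks that carried a Csf1r-GFP reporter, in which green fluorescent protein marks cells using Csf1r, the gene of a growth factor receptor of monocytes and macrophages. The lobes were taken 7 days after a sham operation that opened the chest, and the cells were sorted as CD45+, CSF1R-GFP+ and F4/80+, with Ly6G named without a sign. All 31 cells were treated alike and no animal is named, so they form 1 sample: no p-value is given, and spreads and intervals are over cells.

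Galectins are soluble lectins that bind galactose-containing sugars on glycoproteins and can crosslink them at the cell surface. Annexins bind membrane phospholipids when calcium is present, and several work in pairs with small S100 calcium-binding proteins. Both families are known in monocytes and macrophages, where they have been tied to uptake of dead cells, membrane repair and the course of inflammation.

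The libraries were not alike. Below, a gene is called present where its level reached 1 FPKM, and FPKM is a read count scaled to transcript length and library size. In 21 libraries, 87.4 to 95.6% of reads fell on nuclear protein-coding genes, whereas 10 libraries had 32.8 to 61.6%. Total expected counts were 521492 to 4059833 in the 21 and 120835 to 1592301 in the 10. The 20 cells with 1000 FPKM or more of Lyz2, the lysozyme gene of myeloid cells, were all among the 21, and are called Lyz2-high here. The lowest of them, cell C7, had 1229 FPKM of Lyz2, and the highest of the 11 other cells, D10, had 553 FPKM. The remaining high-coding library, F11, had 0 FPKM of Lyz2. Of the genes behind the sort, Csf1r was present in 20, Ptprc (CD45) in 19, Adgre1 (F4/80) in 15 and Ly6g in 7 of the 20 Lyz2-high cells. Of 10 alveolar macrophage markers, 9 were found in none of the 31 cells, among them Siglecf, Marco and Car4. The remaining marker was present in the Lyz2-high cells D4, D6 and G8 and in E5 and F11. The summed level of the 10 reached 4258 FPKM in a Lyz2-high cell. None of 6 epithelial markers was present in a Lyz2-high cell, and of 9 neutrophil markers 4 (S100a9, Retnlg, Ltf and Lcn2) were in none of them. The other 5 were each found in 1 to 10 of the 20, among them Cxcr2 in 10 at up to 9.74 FPKM and Csf3r in 9 at up to 189 FPKM, and a Lyz2-high cell held 0 to 3 of the 9, with a summed level of 0 to 1768 FPKM (median 9.60 FPKM).

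In GRCm38 with GENCODE M21, Lgals1 lies at chr15:78926725-78930465, Lgals3 at chr14:47367751-47386160, Lgals9 at chr11:78962974-78984946 and Lgals3bp at chr11:118392751-118402092. Anxa1 lies at chr19:20373428-20390944, Anxa2 at chr9:69453620-69491795, Anxa3 at chr5:96793339-96845966, Anxa4 at chr6:86736840-86793584 and Anxa5 at chr3:36448923-36475894. The 9 genes are thus spread over 8 chromosomes.

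The promoters of 3 members are shown because these genes differed in their pattern over the Lyz2-high cells. Lgals3 and Anxa2 were mostly found in the same cells. Anxa5 had a Spearman rho of 0.11 with Lgals3 and 0 with Anxa2 over these 20 cells. The sequences are from RefSeq (GRCm38.p6), run from 250 bases before to 50 after the annotated start, 5′ to 3′ on the gene's strand. Of the 9 members 7 had an entry.
Lgals3, chr14:47373610-47373909, + strand: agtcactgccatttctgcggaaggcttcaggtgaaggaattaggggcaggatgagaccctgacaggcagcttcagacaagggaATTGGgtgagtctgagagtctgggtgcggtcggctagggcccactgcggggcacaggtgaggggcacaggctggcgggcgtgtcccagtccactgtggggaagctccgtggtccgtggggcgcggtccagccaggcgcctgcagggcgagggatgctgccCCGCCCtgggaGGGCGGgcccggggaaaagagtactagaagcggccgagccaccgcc
Anxa2, chr9:69453433-69453732, + strand: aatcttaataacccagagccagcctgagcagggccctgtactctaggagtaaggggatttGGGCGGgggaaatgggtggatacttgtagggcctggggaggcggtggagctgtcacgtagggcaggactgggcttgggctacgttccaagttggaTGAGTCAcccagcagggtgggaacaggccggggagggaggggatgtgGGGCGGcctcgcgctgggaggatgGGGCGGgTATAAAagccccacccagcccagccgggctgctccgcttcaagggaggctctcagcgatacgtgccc
Anxa5, chr3:36475838-36476137, - strand: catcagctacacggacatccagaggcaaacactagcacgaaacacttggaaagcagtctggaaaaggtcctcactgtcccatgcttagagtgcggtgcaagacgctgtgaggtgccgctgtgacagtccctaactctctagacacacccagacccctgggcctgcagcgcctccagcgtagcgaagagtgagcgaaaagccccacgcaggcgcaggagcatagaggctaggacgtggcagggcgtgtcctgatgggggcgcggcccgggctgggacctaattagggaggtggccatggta
Capitals mark 5 motifs searched on both strands. The GC box was searched as GGGCGG and the CCAAT box by its own letters. The TATA box was searched as TATAAA, the AP-1 motif as TGANTCA and the core of the PU.1 motif as GAGGAA. No marked motifs overlapped. The Lgals3 window held 2 GC boxes and 1 CCAAT box, and the Anxa2 window 3 GC boxes, 1 TATA box and 1 AP-1 motif. None of the 5 was found in the Anxa5 window. Of 32851 RefSeq promoter windows of this length, 35.7% held the GC box, 37.4% the CCAAT box, 13.6% the TATA box, 7.81% the AP-1 motif and 28.3% the PU.1 core.

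Most of the 9 genes were found mainly in Lyz2-high cells, and 5 of the 9 made up most of the signal there. Exceptions were Anxa4, present in 5 of 20 Lyz2-high and 5 of 11 other cells, and Lgals9, present in 4 of 20 and 2 of 11. Of the 11 other cells, 10 were low-coding libraries, and the part of library quality in these shares was not tested. The remaining cell, F11, had no Lyz2 and held 7 members. Lgals1, Lgals3, Anxa1, Anxa2 and Anxa5 were each present in 14 to 18 of the 20 Lyz2-high cells. Lgals9, Lgals3bp, Anxa3 and Anxa4 were each present in 4 to 7. Over all 31 cells, 5 of the 9 members were present in at least 50% of cells, against 2.54% of the 47069 genes. In the Lyz2-high cells, 3.04% of all genes were present in at least 10 of the 20, and 13.2% of the 10818 genes present in at least 1 of them. Since the members were picked with results of these cells known, these shares serve only as a scale. Lyz2-high cells held 3 to 7 members (median 5), and the 11 other cells 0 to 7 (median 1). The 9 genes together took 0.129 to 0.822% of all counts in Lyz2-high cells (median 0.444%).

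**Figure D1:**
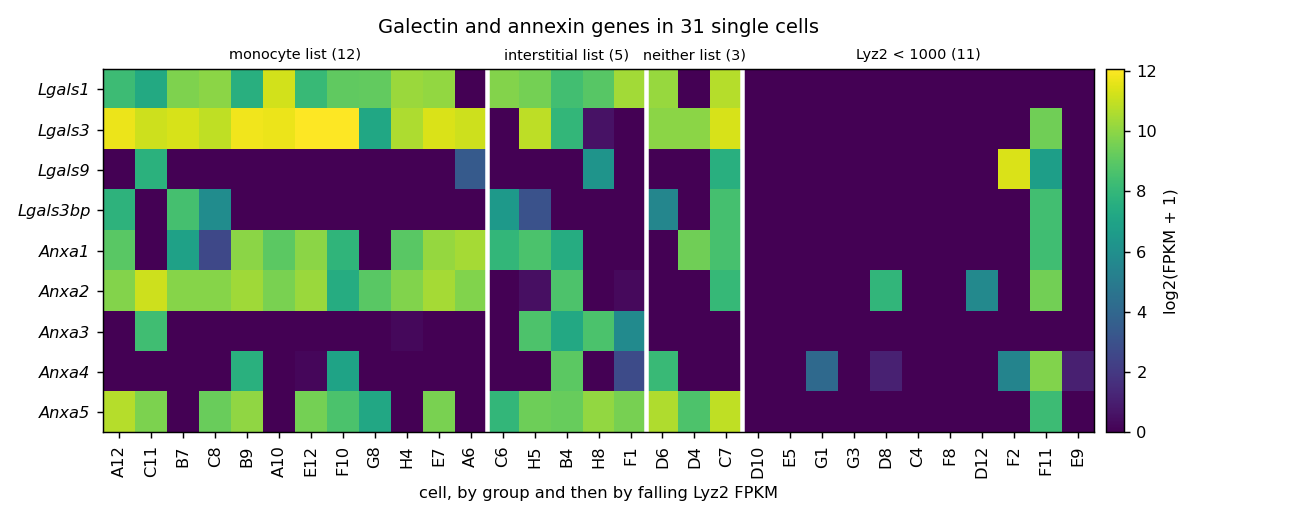
Level of the 9 genes as log2(FPKM + 1) in each of the 31 cells, ordered by cell set (monocyte list, interstitial list, neither list, Lyz2 below 1000 FPKM) and then by falling Lyz2. Lgals3 and Anxa2 are bright in all 12 cells of the monocyte list, and the Lyz2-low cells are dark except for F11 and a few single values.

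Lgals1 encodes galectin-1, a small dimeric galectin with immune-dampening effects in mice, and was found in 18 of the 31 cells, as many as Lgals3. In the 20 Lyz2-high cells it ranged from 0 to 2363 FPKM with a median of 665 FPKM, and it was present in 18 (exact Clopper-Pearson 95% interval 68.3 to 98.8% of cells). It was at 0 in A6 and D4, and present at no less than 158 FPKM in the other 18. None of the 11 other cells held it.

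Lgals3, the gene of galectin-3, a lectin abundant in macrophages, had the highest level of the 9. It ranged from 0 to 4242 FPKM in Lyz2-high cells, with a median of 2066 FPKM that ranked 62nd among 47069 genes, and was present in 17 of 20 (interval 62.1 to 96.8%). The 3 cells without it were C6, F1 and H8, the last at 0.48 FPKM from 1 count, while the 17 others had 145 FPKM or more. Its levels thus formed a high set and a set at or near 0. Outside the Lyz2-high cells it was found in F11 alone (682 FPKM).

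Lgals9 encodes galectin-9, known as a ligand of the inhibitory receptor TIM-3. It was present in 4 of 20 Lyz2-high cells (interval 5.73 to 43.7%), at 205 FPKM in C11, 196 FPKM in C7, 75.4 FPKM in H8 and 9.64 FPKM in A6. Its highest value lay elsewhere, at 2635 FPKM from 5527 counts in F2, a low-coding library with 0.59 FPKM of Lyz2. Lgals3bp was present in 7 of 20 Lyz2-high cells (interval 15.4 to 59.2%), at up to 365 FPKM in C7, and in F11 (336 FPKM).

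Anxa1 encodes annexin A1, a mediator that dampens inflammation through formyl peptide receptors. Its Lyz2-high values ran from 0 to 1379 FPKM with a median of 309 FPKM, and it was present in 15 of 20 cells (interval 50.9 to 91.3%). The 5 cells without it were C11, D6, G8, H8 and F1, and a sixth, C8, had only 5.12 FPKM from 4 counts. Anxa2 encodes annexin A2, which pairs with S100A10 and binds plasminogen at the cell surface. It ranged from 0 to 2244 FPKM in Lyz2-high cells (median 647 FPKM) and was present in 14 of 20 (interval 45.7 to 88.1%). Present values of Anxa2 were 178 FPKM or more, while C6, D4, D6 and H8 were at 0 and F1 and H5 at 0.25 and 0.40 FPKM.

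Anxa5 encodes annexin A5, which binds phosphatidylserine and is used as a probe of dying cells. It ranged from 0 to 1886 FPKM in Lyz2-high cells (median 647 FPKM) and was present in 16 of 20 (interval 56.3 to 94.3%). The cells without it were A10, A6, B7 and H4. Anxa3, whose protein is abundant in human neutrophils, was present in 5 of 20 (interval 8.66 to 49.1%): H5 had 406 FPKM, H8 403 FPKM, C11 331 FPKM, B4 155 FPKM and F1 53.2 FPKM. It was found in none of the 11 other cells. The 5 cells with Anxa3 held 0 to 3 of the 9 neutrophil markers, and their part in its level was not tested. Anxa4 was present in 5 of 20 as well, with B4 highest at 511 FPKM, and in F11 at 883 FPKM. In 4 low-coding libraries it was listed at 1.11 to 42.9 FPKM from 0.33 to 165 estimated counts, and at 50 FPKM or more it remained in 5 of its 10 cells overall.

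By median FPKM in Lyz2-high cells the order was Lgals3 (2066), Lgals1 (665), Anxa2 (647), Anxa5 (647) and Anxa1 (309), and the medians of the other 4 were 0. Since FPKM is scaled to length, these levels can be set side by side. The SD over cells was 1409 FPKM for Lgals3, 604 for Lgals1, 611 for Anxa2, 565 for Anxa5 and 424 for Anxa1. The medians of Lgals1, Anxa2, Anxa5 and Anxa1 thus lay closer together than any of these SDs, and that of Lgals3 stood above Lgals1 by slightly less than the SD of Lgals3. On the log2(FPKM + 1) scale the SD was smallest for Lgals1 (3.07) and largest for Anxa2 (4.51) among these 5.

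In Lyz2-high cells 74 member values had 0 counts, and the limit that a count of 0 allows (3 counts per library) was worth 0.403 to 7.69 FPKM there. These limits cover counting error only. In the 11 other cells 85 values had 0 counts, with limits of 1.28 to 48.8 FPKM. The number of members per Lyz2-high cell had a Spearman rho of -0.22 with total counts over the 20 cells. Of the single members, Anxa2 had -0.44 with total counts and 0.50 with Lyz2, Lgals3 had -0.09 and 0.43, and Anxa5 had 0.53 with the share of reads on coding genes. The part of depth in these levels was not tested beyond the thinned counts given below. Reads of an overlapping gene are also not separable, because the libraries carry no strand. Of the genes overlapping a member, only Gm16144, antisense to Anxa2, had counts in Lyz2-high cells (73 in 1 cell, against 23074 for Anxa2 in the 20).

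The 5 widely found members were each present in 14 to 18 of the 20 Lyz2-high cells, so many shared cells follow from these counts alone. Whether cells were shared more often than that was not tested. All 5 were present in 8 of 20 Lyz2-high cells (A12, B4, B9, C7, C8, E12, E7 and F10), 4 of them in 6 cells, 3 in 4 cells and 2 in the cells F1 and H8. In Lyz2-high cells Anxa2 was never present without Lgals3, though outside them D8 and D12 held Anxa2 (242 and 50 FPKM) with Lgals3 at 0. In the 20 Lyz2-high cells the pair was found together in 14, Lgals3 alone in 3 (D4, D6 and H5) and neither in 3 (C6, F1 and H8). Lgals3 and Anxa1 were found together in 14 cells, Lgals3 alone in 3, Anxa1 alone in C6 and neither in 2. Lgals1 and Anxa5 were found together in 15. Anxa2 and Anxa5 shared 10 cells while 4 held Anxa2 alone and 6 Anxa5 alone, so that every Lyz2-high cell held at least 1 of the pair. Anxa3 and Anxa2 shared 2 cells, and Lgals9 and Anxa4 shared none.

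**Figure D2:**
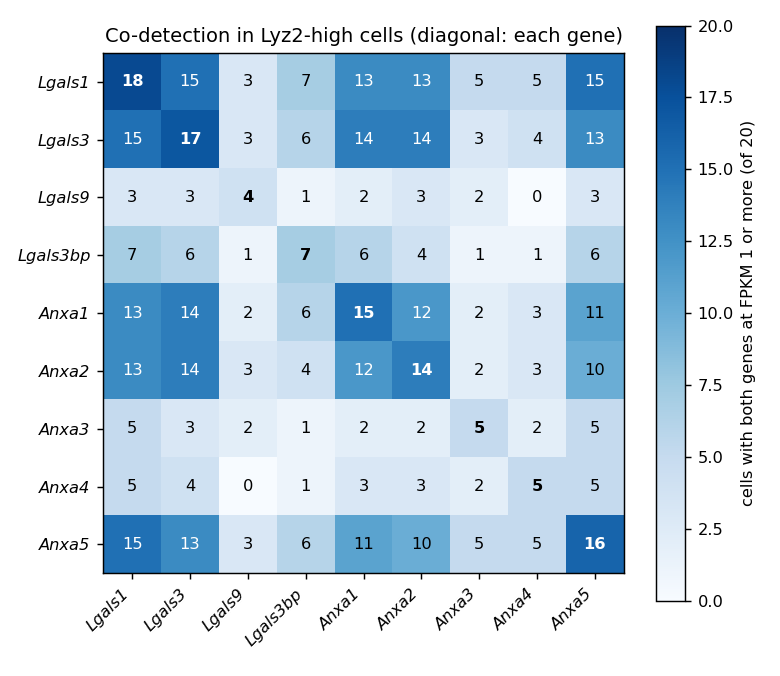
Number of the 20 Lyz2-high cells in which both genes of a pair were at 1 FPKM or more, with each gene's own count on the diagonal. Lgals3 was found in all 14 cells with Anxa2, and all 5 cells with Anxa3 held Lgals1 and Anxa5.

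Over the 20 Lyz2-high cells Lgals3 and Anxa2 had a Spearman rho of 0.64 (Pearson 0.66 on log2(FPKM + 1)), and leaving out the 2 cells farthest from the median of Lgals3 gave 0.71. Over the 14 cells that held both, the rho was 0.18, so that the coefficient over the 20 rested largely on presence and absence. The rho of Lgals3 with Anxa1 was 0.54 over the 20 cells and 0.28 over the 14 with both. That of Anxa1 with Anxa2 was 0.34 (Pearson 0.31). For Lgals3 with Anxa5 it was 0.11, but Pearson's r was -0.19 and thinned counts gave -0.10, so the sign depended on the measure. For Lgals1 with Lgals3 it was -0.13, and -0.35 without the 2 farthest cells. These are examples of 36 pairs and are descriptions, since all cells come from 1 sample and share its handling.

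Lgals3 and Anxa2 were both present in every cell that met a monocyte marker list, and Anxa3 was mostly found in cells that met an interstitial macrophage list. A cell met a marker list when 5 or more of its 10 genes were present. The classical monocyte list (among its genes Ly6c2, Ccr2, Plac8, F13a1, Fn1 and Chil3) was met by 12 cells with 7 to 10 genes each. Of these cells, C11 and F10 had Ly6c2 at 0. Presence in all 12 was not particular to Lgals3 and Anxa2. Of the partner genes described below, S100a4, S100a6, S100a11, Cd44, Ptprc, Slc3a2, Lamp1 and Plaur were in all 12 as well. The interstitial macrophage list (C1qa, C1qb, C1qc, Mrc1, Pf4, Apoe, Folr2, Stab1, Cd163 and Lyve1) was met by 5 cells: B4, C6, F1, H5 and H8. No cell met both, all 17 were Lyz2-high, and the Lyz2-high cells C7, D4 and D6 met neither. C7 held 4 interstitial genes. Cd163 and Lyve1 were present in no Lyz2-high cell, and Folr2 in 1.

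Lgals3 was present in 12 of 12 monocyte-list cells and in 2 of 5 interstitial-list cells. It ranged from 145 to 4242 FPKM in monocyte-list cells (median 2599 FPKM), against 1853 FPKM in H5, 252 in B4, 0.48 in H8 and 0 in C6 and F1 of the interstitial list. The ranges overlapped, as H5 lay above G8 (145 FPKM) and H4 (1542 FPKM). Mean log2(FPKM + 1) was 11.08 ± 1.30 (SD, 12 cells) in monocyte-list cells and 3.88 ± 5.16 (SD, 5 cells) in interstitial-list cells, a difference of 7.20 that is larger than either SD.

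Anxa2 was likewise present in 12 of 12 monocyte-list cells and in 1 of 5 interstitial-list cells. The monocyte-list cells had 178 to 2244 FPKM (median 923 FPKM), against 406 FPKM in B4, 0.40 in H5, 0.25 in F1 and 0 in C6 and H8. Of the monocyte-list cells, F10 at 178 FPKM lay below B4. The means were 9.78 ± 0.89 and 1.90 ± 3.79 (SD) on the log2(FPKM + 1) scale in monocyte-list and interstitial-list cells, and the difference of 7.88 ranked 13th of 5064 genes.

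Anxa3 went the other way. It was present in 1 of 12 monocyte-list cells (C11) and in 4 of 5 interstitial-list cells (B4, F1, H5 and H8), with C6 at 0. Mean log2(FPKM + 1) was 0.72 ± 2.41 in monocyte-list cells and 6.07 ± 3.60 in interstitial-list cells (SD), a difference of -5.35 that is larger than either SD. C11 is thus the single cell of the 20 with Anxa3 that met the monocyte list.

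**Figure D3:**
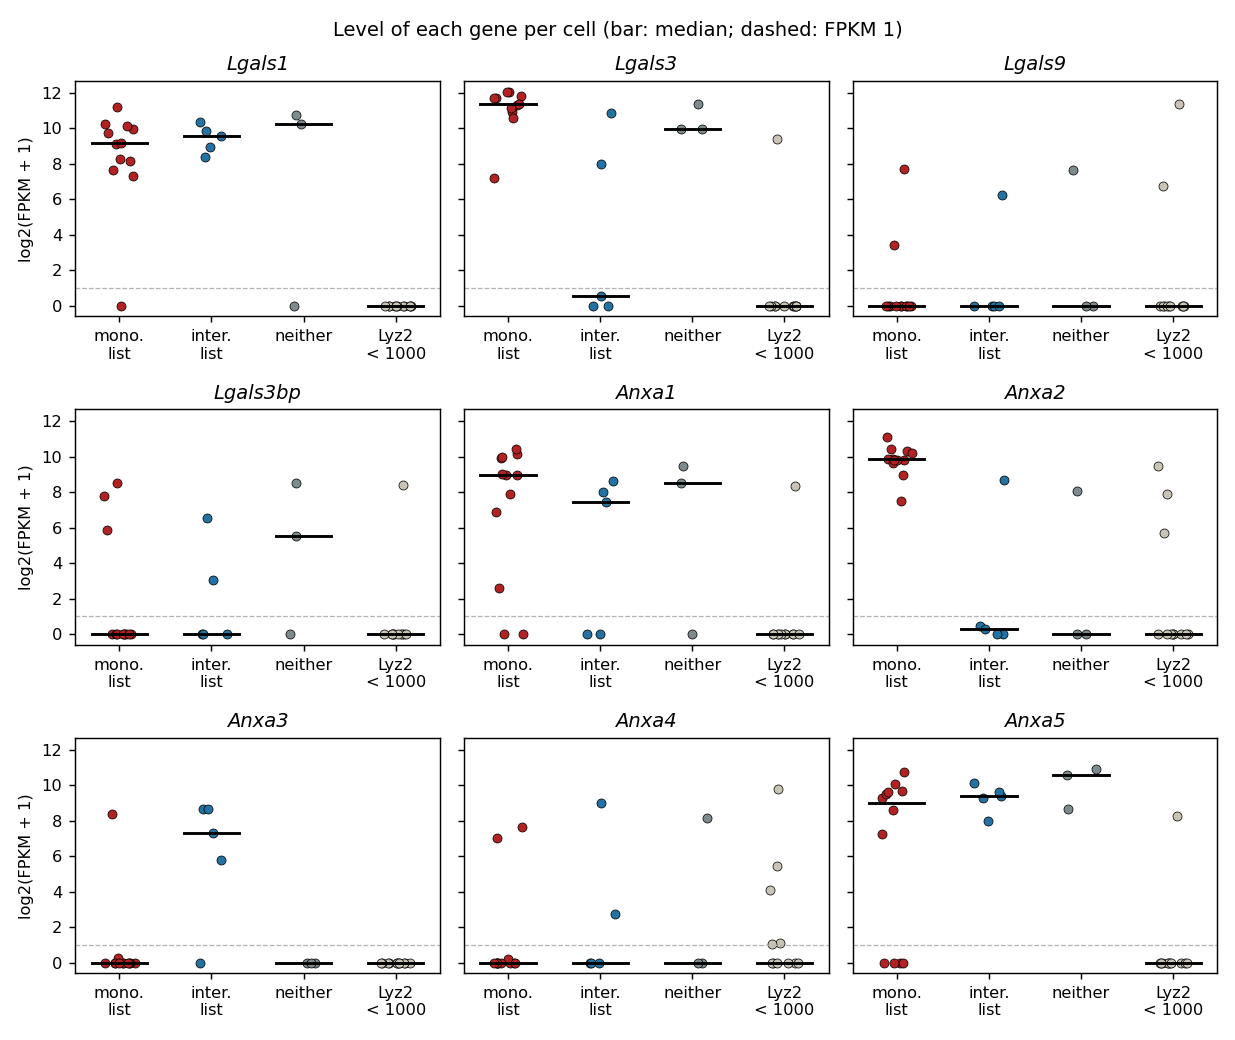
Level of each gene per cell as log2(FPKM + 1) in 12 monocyte-list cells, 5 interstitial-list cells, 3 Lyz2-high cells of neither list and 11 cells below 1000 FPKM of Lyz2. Points are cells, bars are medians and the dashed line is 1 FPKM. Anxa2 and Lgals3 sit high in all 12 monocyte-list cells, and Anxa3 in 4 of the 5 interstitial-list cells.

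Lgals1, Anxa5 and Anxa1 were found in most cells of both sets. Lgals1 was present in 11 of 12 monocyte-list cells (median 566 FPKM) and 5 of 5 interstitial-list cells (336 to 1315 FPKM, median 751 FPKM), a mean log2 difference of -1.01 that is below the SD of 2.89 in monocyte-list cells and above that of 0.77 in interstitial-list cells. Anxa5 was present in 8 of 12 monocyte-list cells and 5 of 5 interstitial-list cells. Its monocyte-list values ran from 0 to 1689 FPKM (median 511 FPKM) and its interstitial-list values from 254 to 1097 FPKM (median 664 FPKM), and the mean log2 difference of -3.03 is below the SD of 4.67 in monocyte-list cells and above that of 0.78 in interstitial-list cells. All 4 Lyz2-high cells without Anxa5 met the monocyte list. Anxa1 was present in 10 of 12 monocyte-list cells (median 507 FPKM) and 3 of 5 interstitial-list cells (median 175 FPKM), and its difference of 2.25 is below both SDs.

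Of the 9 members, 3 (Lgals3, Anxa2 and Anxa1) differed by 2 or more on the log2 scale in favour of monocyte-list cells and 2 (Anxa3 and Anxa5) in favour of interstitial-list cells. With every cell thinned to equal depth Anxa1 came to 1.53 and Anxa5 to -2.48, and with a pseudocount of 10 Anxa5 came to -1.93. Over the 5064 genes present in at least 3 of the 17 cells, 15% passed with monocyte-list cells higher and 11.7% with interstitial-list cells higher. The members were picked with results of these cells known, so nothing is read from this. The median difference was -0.33 over the members and 0.18 over all genes. In none of the members were the 2 sets of cells fully apart, which held for 0.276% of genes with monocyte-list cells higher and 0.415% with interstitial-list cells higher. Total counts were 521492 to 3526674 (median 1233765) in monocyte-list cells and 767318 to 4059833 (median 2568955) in interstitial-list cells. Thinned to equal depth, the log2 differences were 5.42 for Lgals3, 5.75 for Anxa2 and -3.41 for Anxa3.

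Within each set the coefficients differed from those over all 20 cells. The rho of Lgals3 and Anxa2 was 0.14 among the 12 monocyte-list cells and 0.36 among the other 8 Lyz2-high cells. That of Lgals3 and Anxa1 was 0.41 among the monocyte-list cells and 0.48 among the other 8. For Anxa2 and Anxa5 it was 0 over the 20 cells (Pearson -0.32) and 0.18 among the other 8 (Pearson 0.31). Among the monocyte-list cells it was 0.61, but Pearson's r was 0.11, so the size depended on the measure.

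**Figure D4:**
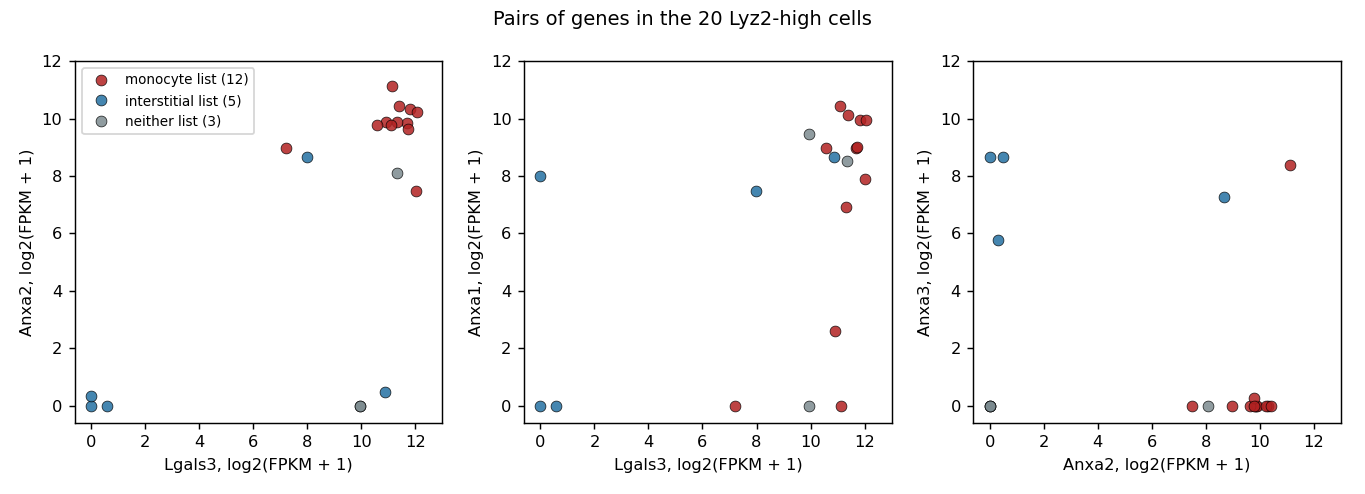
Levels of 3 gene pairs as log2(FPKM + 1) in the 20 Lyz2-high cells, coloured by the marker list met. Cells without Lgals3 also lack Anxa2, and D4 and D6 coincide at the lower right of the first panel. Anxa3 is mostly found where Anxa2 is not, with C11 and B4 holding both.

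The 3 cells that met neither list differed among themselves. C7 held 7 members, with Lgals3 at 2587 FPKM, Anxa5 at 1886 FPKM, Lgals1 at 1699 FPKM and Anxa2 at 272 FPKM. D6 held Lgals1 (1183 FPKM), Lgals3 (990 FPKM) and Anxa5 (1544 FPKM) without Anxa1 or Anxa2. D4 held Lgals3 (977 FPKM), Anxa1 (697 FPKM) and Anxa5 (405 FPKM) and was the Lyz2-high cell with the fewest members. F11, with no Lyz2, held 7 members, among them Anxa2 (704 FPKM) and Lgals3 (682 FPKM), but not Lgals1. In the 10 low-coding libraries, Lgals1, Lgals3, Lgals3bp, Anxa1, Anxa3 and Anxa5 were all at 0. The limit that a count of 0 in 10 cells sets is a share of up to 30.8%. Of the 1431 genes present in at least 10 Lyz2-high cells, 314 were present in none of these libraries (0.667% of all genes). Lgals1, Lgals3, Anxa1 and Anxa5 were among the 314. Anxa2 was present in D8 (242 FPKM) and, at a lower level, in D12.

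Split by single genes, the Lyz2-high cells gave the following counts. Lgals3 was present in 3 of the 6 cells with C1qb and in 14 of the 14 without, while Anxa2 was present in 2 and 12 of them. With Ly6c2, Anxa2 was present in 10 of 10 cells at 498 to 1368 FPKM, against 4 of 10 without.

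The S100 partner genes were at higher levels in monocyte-list cells. S100a10, the partner of Anxa2, was present in 10 of 12 monocyte-list cells (median 1276 FPKM) and in 1 of 5 interstitial-list cells (392 FPKM in H5). Of the 10, E7 had only 1.41 FPKM from 1 count, and it is also among the cells with both genes below. Over the 20 Lyz2-high cells, 10 held both S100a10 and Anxa2, 4 Anxa2 alone, 1 S100a10 alone and 5 neither (rho 0.68). That rho was 0.35 among the monocyte-list cells, 0.26 among the other 8 and 0.16 over the 10 cells with both. S100a11, a partner of Anxa1, was present in 12 of 12 monocyte-list cells (median 2181 FPKM) and 4 of 5 interstitial-list cells (median 10.7 FPKM). In the monocyte-list cell C8 it had only 9.96 FPKM from 1.74 estimated counts. Anxa1 and S100a11 had a rho of 0.51 over the 20 cells, 0.70 in the monocyte-list cells and -0.22 in the other 8. S100a6 had 2013 to 16396 FPKM in monocyte-list cells, against at most 1085 FPKM in interstitial-list cells, and S100a4 had 1084 to 10444 FPKM in monocyte-list cells, against at most 49.5 FPKM in interstitial-list cells. These 2 genes, unlike any of the 9 members, showed no overlap between the sets. No overlap with monocyte-list cells higher held for 0.276% of the 5064 genes compared. The partner genes were picked with results of these cells known, so this share serves only as a scale.

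The rest of both families was sparse. Of 7 other galectin genes with a row, Lgals8, whose protein senses damaged vesicles, was present in 6 of 20 Lyz2-high cells at 4.26 to 444 FPKM. Lgals4 was found in 1 low-coding library, and Lgals2, Lgals7, Lgals12, Lgalsl and Grifin in none of the 31 cells, which allows a share of up to 11.2%. Of 7 other annexins, Anxa7 and Anxa11 were present in 5 of 20 Lyz2-high cells each, at up to 278 and 67.5 FPKM, and Anxa6 in 2 at 36.5 and 605 FPKM. Anxa8, Anxa9, Anxa10 and Anxa13 were found in none. Of the 3 other annexins found, none was present in an interstitial-list cell.

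Among known binding partners, glycoproteins bound by galectins were widely found. Ptprc and Cd44 were each present in 19 of 20 Lyz2-high cells and Slc3a2 (CD98 heavy chain) in 20. The lysosomal membrane genes Lamp1 and Lamp2 were present in 19 and 16, and the integrin gene Itgb1 in 11. Slc3a2 was also present in every low-coding library, at 134 (F2) to 1579 FPKM (E5), so its presence did not set the Lyz2-high cells apart. Its median was 267 FPKM in monocyte-list cells and 2.97 FPKM in interstitial-list cells. Cd44 had 251 to 845 FPKM in monocyte-list cells and 0 to 153 FPKM in interstitial-list cells, without overlap. Of the S100 and binding partner genes, only S100a4, S100a6 and Cd44 were apart in this way, as were 0.276% of the 5064 genes compared. Trem2 was present in 10 of 20 and Mertk, a receptor for dead cells, in 2, both of the interstitial list. The TIM-3 gene Havcr2 was present in 4 of 20 and shared 1 cell (C7) with Lgals9. Of the formyl peptide receptors, Fpr2 was present in 5 of 12 monocyte-list and 0 of 5 interstitial-list cells, Fpr3 in 2 of 20 and Fpr1 in none. Anxa1 and Fpr2 were found together in 4 cells. In the plasminogen system, the urokinase receptor gene Plaur was present in 12 of 12 monocyte-list cells (median 721 FPKM) and 1 of 5 interstitial-list cells (388 FPKM in B4, the single cell of that list with Anxa2). Plau was present in 1 Lyz2-high cell and Plg in none of the 31.

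**Figure D5:**
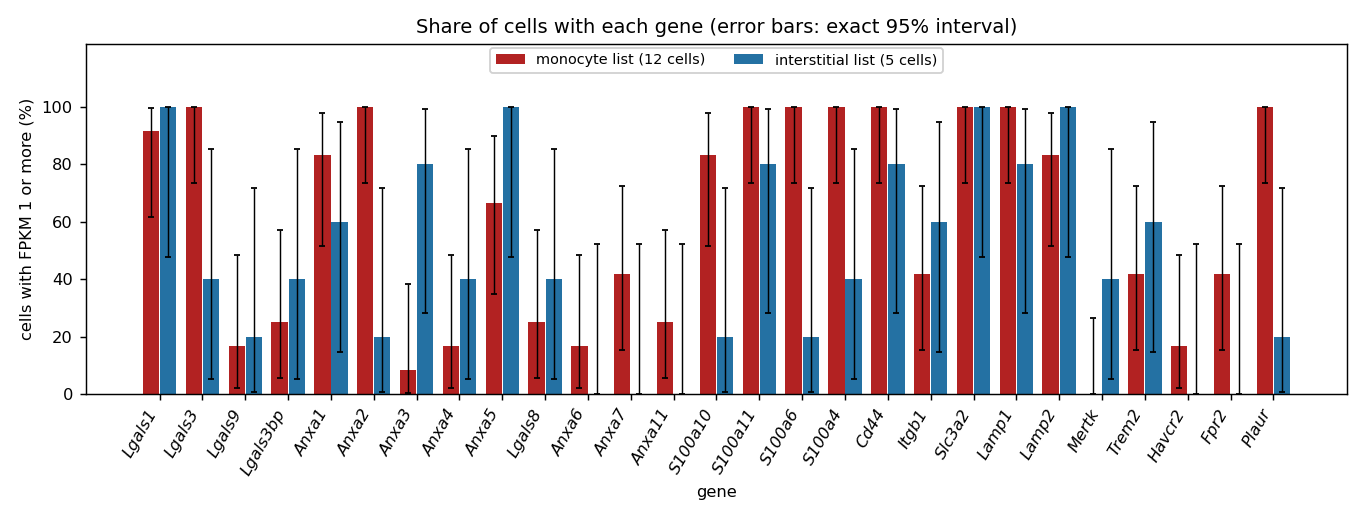
Share of cells with 1 FPKM or more of each member, other family genes, S100 partners and binding partners, in 12 monocyte-list cells (red) and 5 interstitial-list cells (blue), with exact 95% intervals over cells. Anxa2, Lgals3, S100a6 and Plaur reach 100% in monocyte-list cells and 20 to 40% in interstitial-list cells, while Anxa3 is at 8.33% and 80%.

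Genes whose levels ran most like each member were ranked by Spearman rho over the 20 Lyz2-high cells, among 1409 genes present in at least 10 of them. For Anxa2 these were Vim, the gene of the intermediate filament vimentin (0.82), Gsr, the gene of glutathione reductase (0.81), and the predicted gene Gm9844 (0.80). Lgals3 was followed by the ribosomal protein gene Rpl3 (0.77), Clec4e, which encodes the receptor Mincle (0.76), and Ifitm2 (0.74). Among the 12 monocyte-list cells alone the rho was 0.41 for Anxa2 with Vim and 0.73 for Lgals3 with Clec4e. For Anxa1 they were Eif5a (0.71), Oaz1 (0.70) and Ifitm2 (0.68), for Lgals1 Atp6v0e2 (0.72), Ybx1 (0.71) and Furin (0.65), and for Anxa5 Tonsl (0.70), Purb (0.66) and Gm8797 (0.65). With thinned counts, 0 of the 3 genes named for Lgals1 and 1 of 3 each for Anxa1 and Anxa5 were still among the first 3. The rho of Lgals1 with Atp6v0e2 was then 0.42. Lgals3 and Anxa2 each kept 2 of 3, and Gm9844 fell to rank 32 for Anxa2 (rho 0.62). With genes present in at least 25% of cells ranked, 1 of the 3 named for Anxa5 stayed among the first 3. Furin and Purb lay near the presence limit, at medians of 1.34 and 0.955 FPKM. Among the same 1409 genes, S100a6 ranked 6th and S100a10 10th for Lgals3, and 12th and 17th for Anxa2. Within the sets the rho of Anxa2 with S100a6 was 0.06 in monocyte-list cells and -0.01 in the other 8, against 0.71 over the 20. That of Lgals3 with S100a6 was 0.42 and 0.52 in the same sets.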

How the data were processed

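Per the labels' protocols, sorted cells were captured singly with the Fluidigm C1, their polyadenylated RNA was amplified by SMARTer chemistry and Nextera XT libraries followed, so neither strand nor molecule is marked. The tools named in the submitters' processing notes are RSEM, Trimmomatic and CASAVA 1.8, with the build GRCm38. An aligner and an annotation release were not given in the sources used here. RSEM expected counts were deposited by the authors (estimated read counts per gene, not normalized), as were FPKM values (scaled to transcript length and to mapped fragments). Of the 75 cell columns, 44 had names that no label matches and were left out. Of 47069 identifiers, 46488 matched a symbol. Gene types came from GENCODE M21.

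Python 3.11.15 with pandas 2.3.3, numpy 2.4.6 and scipy 1.17.1 was used. Levels are FPKM, log values are log2(FPKM + 1), presence is 1 FPKM or more, and shares carry exact Clopper-Pearson 95% intervals that cover counting error over cells only. The cells form 1 group, so no test was made and no cell counts as a replicate. No doublet caller was run, and no cell met both marker lists. For equal depth, counts were rounded and every cell was thinned to 120829 counts. Thinned values stayed counts and were not scaled to transcript length. The ranking of like genes was tested on simulated data. The members, marker lists and named genes (all members, the fixed family, partner and receptor lists, and the 3 genes most like each widely found member) were chosen with earlier results of these data known. The rule that a cell meets a list at 5 of 10 genes and the comparison of both lists were chosen after seeing the data. Alternatives were minimums of 5 and 50 FPKM and of 1 and 10 counts, thinning, rescaled FPKM, Lyz2 limits of 500 and 5000 FPKM, pseudocounts of 0.1 and 10, Pearson's r, and the 21 high-coding libraries.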

Additional observations from a re-analysis of the deposited data

Results flagged for a closer look

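Single cells stood apart from the others of their set for 8 of 12 combinations of member and set examined, by the gap of the highest or lowest cell to its nearest neighbour relative to the range. Most of these sets hold several values at or near 0, so a single positive cell stands apart by the measure itself. The rate of about 1 in 20 groups flagged by chance is therefore no scale for the 8 of 12. Among the 5 interstitial-list cells, the cells that stood apart were H5 with 1853 FPKM of Lgals3, H8 with 75.4 FPKM of Lgals9, C6 with 91.6 FPKM of Lgals3bp, and B4 with 406 FPKM of Anxa2 and 511 FPKM of Anxa4. Among the 10 low-coding libraries they were F2 with 2635 FPKM of Lgals9 and 42.9 FPKM of Anxa4, and D8 with 242 FPKM of Anxa2.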

How the results depend on the processing

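Of 351 alternative values, 330 stayed within the spread or on the same side of the set limit, 17 moved further and 4 fell below the limit. The sign changed in 9 of the 351, among them the rho of Lgals1 with Anxa2 (Pearson 0.04), of Lgals1 with Anxa5 (Pearson 0.14) and of Lgals3 with Anxa5 (Pearson -0.19), and the Lgals3bp list difference (thinned 0.21); none of these passed a limit in the first place. The log2 difference of Anxa1 between monocyte-list and interstitial-list cells fell below 2 with thinned counts (1.53), with a pseudocount of 10 (1.58) and when 4 interstitial genes were enough (1.64), and that of Anxa5 came to -1.93 with a pseudocount of 10. Differences of Lgals3, Anxa2 and Anxa3 stayed past 2 in these 4 alternatives. Presence counts of the 5 widely found members stayed within 1.5 times in every alternative. Anxa4 was in 10 of 31 cells, or 5 at 50 FPKM. Of the 3 genes most like each, Lgals1 kept 0, Anxa1 and Anxa5 kept 1 and Lgals3 and Anxa2 kept 2 with thinned counts, so the names lost depend on that setting. No paired analysis was possible because all cells form 1 group. Depth limits what 0 means in the low-coding libraries, where 3 counts are worth up to 48.8 FPKM.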
